A study of Bos taurus with 12 samples.

Results

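The genes described here were 9 members of bone morphogenetic protein (BMP) signalling: the ligand genes BMP2, BMP4 and BMP6, the antagonist genes GREM1, NOG and CHRDL1, and the inhibitor of DNA binding genes ID1, ID2 and ID3. They were chosen by symbol, and 9 of 9 had a row among the 33714 rows of the deposited mRNA table. Preadipocytes isolated from the longissimus dorsi of newborn Qinchuan cattle (Bos taurus) were sequenced on 4 days of adipogenic culture, with 3 libraries per day and 12 in all. Cells of the 0 d group were grown in DMEM-F12 with serum and antibiotics and had not been induced. Cells of the 3 d, 6 d and 9 d groups had in addition received dexamethasone, insulin and 0.5 mM IBMX, an inhibitor of cAMP breakdown, for the first 48 hours and then insulin alone until collection, so that the 3 d cells had left the full cocktail shortly before. The cells of the 4 days are described as 1 batch and the libraries of a day as biological replicates; whether the replicates came from separate animals is not given in the sources used here, and p-values measure the spread between these libraries.

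BMP ligands are secreted dimers of the TGF-beta superfamily that bind pairs of type I and type II serine/threonine kinase receptors and lead to phosphorylation of receptor SMADs. Antagonists of the gremlin, noggin and chordin-like types bind the ligands outside the cell and keep them from their receptors. ID genes are direct transcriptional targets of the receptor SMADs, and their products dimerise with E proteins and block the DNA binding of basic helix-loop-helix factors such as those of the myogenic family; in fat, BMP2 and BMP4 are known for commitment of mesenchymal precursors to the adipocyte lineage.

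Levels are given as FPKM, fragments scaled to transcript length and to the mapped fragments of the library, so that levels can be set beside each other between genes. Fold changes are on the log2(FPKM + 0.1) scale, which understates changes of genes near 0. A gene was called when its log2 fold change in limma was over 1 in either direction with a p under 0.05 after Benjamini-Hochberg adjustment over the 15401 mRNAs tested, those with a mean of at least 0.1 FPKM. NOG was under that minimum, so 8 of the 9 genes were tested. The comparisons with 0 d share their 0 d libraries.

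**Figure D1:**
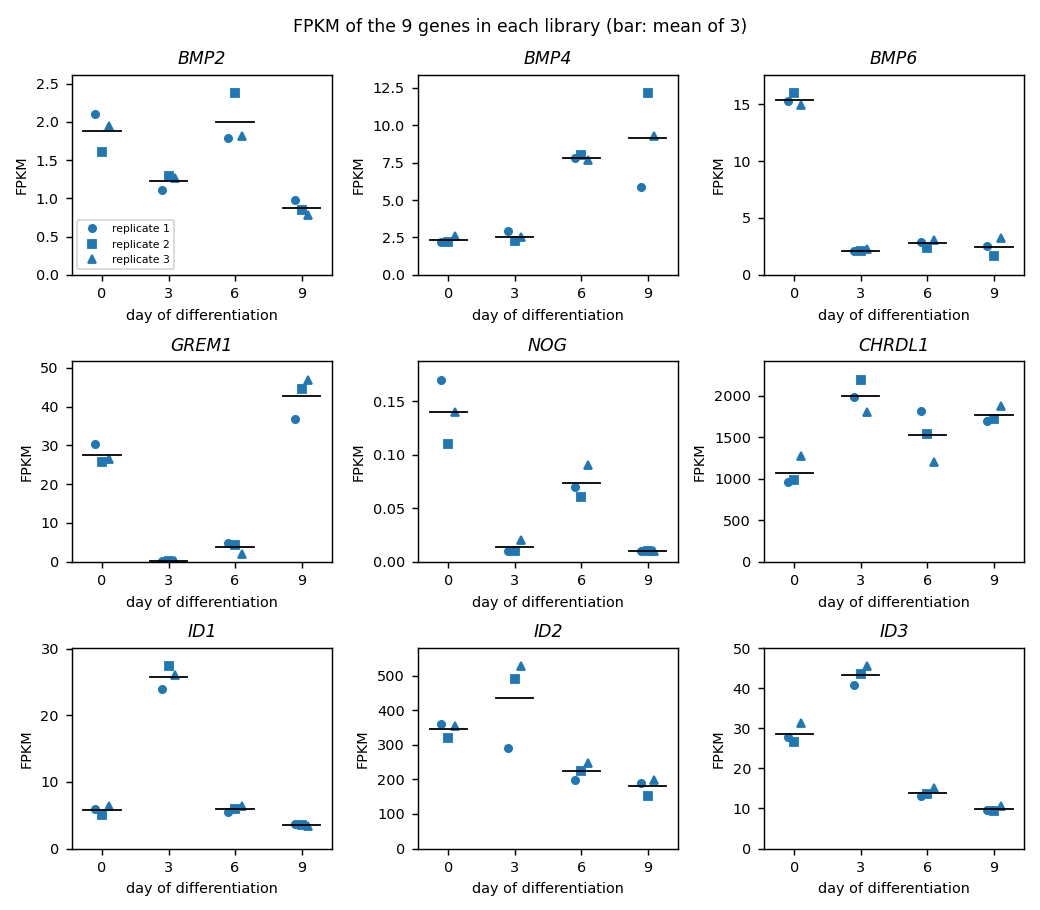
FPKM of the 9 genes by day of differentiation (0, 3, 6 and 9), 1 point per library with the marker shape giving the replicate number and the bar the mean of 3 libraries; each vertical axis starts at 0 and has its own scale. GREM1 fell from a mean of 27.5 at 0 d to 0.257 at 3 d and stood at 42.7 at 9 d, while ID1 had its highest level, 25.8, at 3 d.

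At 3 d, 1 of the 8 tested genes was called higher than at 0 d (ID1), where 8.06% of all mRNAs tested were, and 2 were called lower (BMP6 and GREM1), against 15.2% of all mRNAs. For 6 d against 0 d, 1 gene was called higher (BMP4; 3.39% of all mRNAs) and 3 lower (BMP6, GREM1 and ID3; 7.97%). For 9 d against 0 d, BMP4 was called higher (3.41% of all mRNAs) and BMP2, BMP6 and ID3 lower (7.47%). Between the induced days, BMP4 and GREM1 were called higher at 6 d than at 3 d (9.85% of all mRNAs) and ID1 and ID3 lower (9.23%). From 6 d to 9 d, GREM1 was called higher (2.55% of all mRNAs) and BMP2 lower (1.89%). For 9 d against 3 d, BMP4 and GREM1 were called higher (10.2% of all mRNAs) and ID1, ID2 and ID3 lower (10.3%). The median log2 fold change of the 8 genes was 0.21 at 3 d, -0.30 at 6 d and -0.82 at 9 d against 0 d, beside -0.06, -0.15 and -0.19 over all mRNAs tested. With 8 genes these shares rest on few values each, and the genes were not chosen at random.

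The deposited FPKM were not centred between days. Rescaling each library by its median ratio to the geometric mean moved the median of all mRNAs by 0.16 (log2) for 6 d and by 0.19 for 9 d against 0 d, and by 0.12 for 9 d against 3 d. It also moved the share of calls that were higher from 29.8% to 40.6% at 6 d and from 31.3% to 46.6% at 9 d against 0 d. Of the 8 genes, BMP2 at 9 d (log2 fold change -0.83) and ID3 at 6 d (-0.86) against 0 d were no longer past the fold limit after rescaling, and no call of another of the 8 genes in the 6 comparisons changed.

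Among the ligands, BMP6 had the highest level in uninduced cells and fell on induction. BMP6, a ligand best known from iron metabolism and bone, stood at 15.30, 16.00 and 14.89 FPKM in the 0 d libraries, at 2.05, 2.09 and 2.25 at 3 d, at 2.90, 2.34 and 3.02 at 6 d and at 2.49, 1.61 and 3.27 at 9 d. The 0 d libraries were all far above the 9 induced libraries, the 9 d libraries overlapped those of 3 d and 6 d, and the 3 d libraries were all below those of 6 d. The log2 fold change was -2.80 at 3 d, -2.45 at 6 d and -2.65 at 9 d (limma adjusted p = 1.53e-06, 1.02e-05 and 6.85e-06). In order of level the days ran 0 d, 6 d, 9 d and 3 d, and no difference among the last 3 passed the test (limma adjusted p from 0.191 to 0.592).

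BMP4 rose late. BMP4, which in adipose tissue is associated with commitment of precursors, had 2.17, 2.19 and 2.60 FPKM at 0 d, 2.90, 2.28 and 2.50 at 3 d, 7.79, 7.98 and 7.70 at 6 d, then 5.88, 12.17 and 9.30 at 9 d. The 6 d and 9 d libraries lay above all those of 0 d and 3 d, the 6 d libraries lay close together, and the 9 d libraries were spread on both sides of them. BMP4 was higher at 6 d by 1.72 and at 9 d by 1.87 (log2) than at 0 d (limma adjusted p = 0.000173 and 0.000109). Days 9 and 6 did not differ (log2 fold change 0.16, limma adjusted p = 0.686), nor did days 3 and 0 (0.13, limma adjusted p = 0.641).

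BMP2 changed less. BMP2, an osteogenic ligand close to BMP4 in sequence, was measured at 2.1, 1.60 and 1.94 FPKM at 0 d, 1.11, 1.29 and 1.27 at 3 d, 1.79, 2.38 and 1.81 at 6 d, then 0.98, 0.85 and 0.78 at 9 d. The 0 d and 6 d libraries overlapped and were the highest, the 3 d libraries lay between, and the 9 d libraries were the lowest, with no overlap among these 3 levels. The 9 d level was lower than that of 0 d by a log2 fold change of -1.03 and lower than that of 6 d by -1.10 (limma adjusted p = 0.000387 and 0.000511), both close to the fold limit of 1. Without replicate 1 of 0 d or replicate 3 of 9 d the first was -0.95 or -0.96, and without replicate 2 of 6 d the second was -0.98, each under the limit. With a pseudocount of 1 the BMP2 values were -0.62 and -0.67. The difference between 3 d and 0 d was -0.58 (limma adjusted p = 0.00716), less than the fold limit, and that of 6 d and 0 d 0.08 (limma adjusted p = 0.733).

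Together the 3 ligands summed to 19.6 ± 0.181 FPKM in uninduced cells and to 5.91 ± 0.220, 12.6 ± 0.115 and 12.4 ± 2.75 FPKM after 3, 6 and 9 d (mean ± SD, n = 3 libraries per day). BMP6 made up 78.6 ± 2.13% of that sum at 0 d and 20.7 ± 8.47% at 9 d, and BMP4 11.8 ± 1.33% and 71.9 ± 10.3% (n = 3 each; descriptions of the sum, with no test). The main ligand by level was therefore BMP6 in uninduced cells and BMP4 at 6 d and 9 d, where its share was 62.2 ± 0.709% and 71.9 ± 10.3%. At 3 d BMP4 and BMP6 had shares of 43.2 ± 4.06% and 36.0 ± 1.93%. In bulk RNA, fewer cells of a type and less RNA per cell cannot be told apart, here and for all genes below.

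GREM1 had the widest range of the 8 tested genes on the log2 scale of day means. GREM1 encodes gremlin 1, an extracellular antagonist that binds BMP2 and BMP4, and its libraries had 30.28, 25.63 and 26.59 FPKM at 0 d, 0.25, 0.27 and 0.25 at 3 d, 4.92, 4.24 and 2.07 at 6 d, then 36.83, 44.45 and 46.95 at 9 d. The 4 days did not overlap: the 3 d libraries were near 0, the 6 d libraries were between them and those of 0 d, and the 9 d libraries were the highest. Against 0 d the log2 fold change was -6.27 (95% interval -6.85 to -5.69) at 3 d and -2.93 at 6 d (limma adjusted p = 2.11e-08 and 1.44e-05). From 3 d to 6 d the level rose by a log2 fold change of 3.34 and from 6 d to 9 d by 3.56 (limma adjusted p = 3.01e-06 and 1.16e-05). At 9 d the gene was 0.63 (95% interval 0.05 to 1.21) above 0 d on the log2 scale, which did not pass the test (limma adjusted p = 0.0853), so the order 9 d, 0 d, 6 d and 3 d is supported by the test except between its first 2 days.

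CHRDL1 was the most abundant of the 9 genes on every day. CHRDL1, which encodes chordin-like 1, a BMP-binding antagonist, had 961.55, 989.37 and 1268.84 FPKM at 0 d, 1984.30, 2194.26 and 1800.30 at 3 d, 1818.76, 1540.58 and 1203.85 at 6 d, then 1692.40, 1722.31 and 1881.28 at 9 d. The 3 d and 9 d libraries were all above those of 0 d, and the 6 d libraries overlapped all other days. The log2 fold change against 0 d was 0.90 at 3 d, 0.49 at 6 d and 0.73 at 9 d (limma adjusted p = 0.000647, 0.0304 and 0.00419), under the fold limit on all 3 days. Without replicate 3 of 0 d the value at 3 d was 1.03, past the limit. Days ran in the order 3 d, 9 d, 6 d and 0 d, with no difference between 3 d and 9 d or between 9 d and 6 d (limma adjusted p = 0.380 and 0.342). Between 6 d and 3 d the value was -0.41 (limma adjusted p = 0.0502, from 0.0148 to 0.175 with 1 library left out).

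NOG was near the lower end of detection. NOG, which encodes noggin, was listed at 0.17, 0.11 and 0.14 FPKM at 0 d, 0.01, 0.01 and 0.02 at 3 d, 0.07, 0.06 and 0.09 at 6 d, then 0.01, 0.01 and 0.01 at 9 d. The 0 d libraries were the highest and the 6 d libraries second, with no overlap, whereas the 3 d and 9 d libraries overlapped at 1 unit of the last decimal of the table. A fit without the minimum gave log2 fold changes of -1.08 at 3 d and -1.12 at 9 d against 0 d (limma adjusted p = 1.29e-05 and 2.71e-05) and of -0.47 at 6 d (limma adjusted p = 0.00692). These values depend on the pseudocount at such levels: with 0.01 in place of 0.1 the difference of means at 3 d was -2.69, and with 1 it was -0.17.

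CHRDL1 made up 97.4 ± 0.503% of the summed FPKM of the 3 antagonists at 0 d and 99.99 ± 0.00120% at 3 d (n = 3), so their sum followed CHRDL1 and not GREM1. The log2 ratio of GREM1 to BMP4 FPKM was 3.80, 3.55 and 3.35 in the 0 d libraries, -3.54, -3.08 and -3.32 at 3 d, -0.66, -0.91 and -1.90 at 6 d, then 2.65, 1.87 and 2.34 at 9 d. GREM1 thus exceeded BMP4 in all libraries of 0 d and 9 d and lay below it in all those of 3 d and 6 d, a description with no test.

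ID1 peaked at 3 d. ID1, whose product sequesters E proteins, was measured at 5.96, 5.05 and 6.35 FPKM at 0 d, 23.98, 27.31 and 26.02 at 3 d, 5.44, 5.95 and 6.39 at 6 d, then 3.63, 3.56 and 3.43 at 9 d. The 3 d libraries stood apart above all others, the 0 d and 6 d libraries overlapped, and the 9 d libraries were lower than both. ID1 was higher at 3 d than at 0 d by 2.14 (log2) and lower at 6 d than at 3 d by -2.10 (limma adjusted p = 4.89e-08 and 8.44e-08). Days 6 and 0 did not differ (0.04, limma adjusted p = 0.812), and 9 d was below 0 d by -0.69 (limma adjusted p = 0.000426), less than the fold limit.

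ID3 had the same highest day as ID1 and then fell below its starting level. ID3 stood at 27.91, 26.63 and 31.34 FPKM at 0 d, 40.82, 43.52 and 45.47 at 3 d, 13.13, 13.64 and 15.03 at 6 d, then 9.68, 9.44 and 10.73 at 9 d. No 2 days overlapped, and the order was 3 d, 0 d, 6 d and 9 d. The log2 fold change against 0 d was 0.60 at 3 d, -1.03 at 6 d and -1.51 at 9 d (limma adjusted p = 0.000213, 9.64e-06 and 8.80e-07), of which the first did not reach the fold limit. The value at 6 d lay at that limit and was -0.97 without replicate 3 of 0 d and -0.99 without replicate 1 of 6 d, and -0.99 with a pseudocount of 1. The step from 6 d to 9 d was -0.48 (limma adjusted p = 0.00320).

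ID2 was the most abundant ID gene and the least regular. ID2 had 360.60, 319.12 and 354.96 FPKM at 0 d, 290.41, 491.22 and 526.74 at 3 d, 197.88, 223.54 and 248.38 at 6 d, then 189.73, 152.94 and 197.88 at 9 d. Replicate 1 of 3 d was below all 0 d libraries and the other 3 d libraries were above them, while the 6 d and 9 d libraries were all below those of 0 d and 3 d. The difference of 3 d and 0 d was 0.29 (limma adjusted p = 0.261), and those of 6 d and 9 d with 0 d were -0.63 and -0.94 (limma adjusted p = 0.0365 and 0.00489), under the fold limit. With 1 library left out, the difference of 3 d and 0 d ranged from 0.13 to 0.56 (limma adjusted p from 0.00558 to 0.636). ID2 was called only for 9 d against 3 d (-1.24, limma adjusted p = 0.000598); without replicate 1 of 3 d the difference of 6 d and 3 d, -0.92 with all libraries, was -1.19 and past the limit, and without replicate 3 of 6 d it was -1.004. Without replicate 3 of 9 d the difference of 9 d and 0 d was -1.02. Days 6 and 9 did not differ beyond their spread (limma adjusted p = 0.342).

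**Figure D2:**
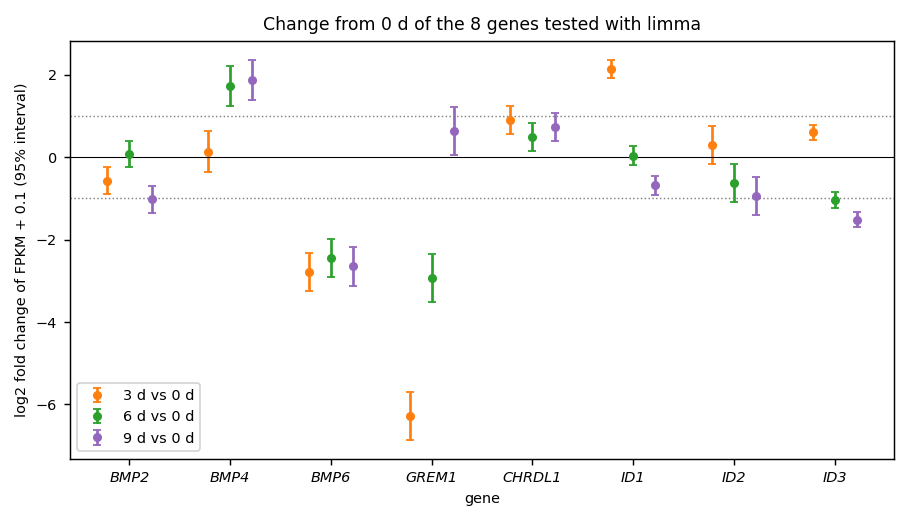
Log2 fold change of FPKM + 0.1 against 0 d at 3, 6 and 9 d for the 8 genes tested, with 95% intervals from limma and dotted lines at the fold limit of 1 in each direction. GREM1 at 3 d lies lowest at -6.27, BMP6 is below -2 on all 3 days, and ID1 is above 2 at 3 d alone.

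The pattern of each gene over the 12 libraries was set beside those of 9644 named mRNAs with a mean of at least 1 FPKM by Pearson's r on the log2 scale, as a description. GREM1 was closest to AES (r = 0.992), TMEM181 (0.990) and IFI30 (0.989), and BMP6 to RAPSN (0.986), MYL4 (0.982) and RAD51D (0.981). The day means of RAPSN and MYL4 were 7.39 and 23.7 FPKM at 0 d and 1.54 and 5.19 at 3 d. For BMP4 the closest were SDC2 (0.970), PLAUR (0.965) and SUB1 (0.964), and for BMP2 UBA1 (0.968), AIMP2 (0.955) and CNOT11 (0.952). ID1 was closest to ZNF3 (0.995), SLC5A6 (0.995) and FOXO1 (0.994), ID3 to PLXNA4 (0.991), PKDCC (0.990) and EPHB4 (0.989), and ID2 to ATXN7L3 (0.961), IPO13 (0.953) and IGF2 (0.951). NOG was closest to CTPS1 (0.979), XPOT (0.977) and BCS1L (0.974), and CHRDL1, with the lowest values, to SIK1 (0.919), PAPD5 (0.912) and SFRP4 (0.903). Each r is over 12 libraries that share 4 days.

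Of 90 other genes of the pathway, in 8 lists, 81 had a row of their own and 61 were tested. At 3 d, 6 were called higher and 19 lower than at 0 d (8.06% and 15.2% of all mRNAs), at 6 d 3 and 12 (3.39% and 7.97%), and at 9 d 3 and 14 (3.41% and 7.47%). Between induced days, 11 were called higher and 9 lower for 6 d against 3 d (9.85% and 9.23% of all mRNAs), 1 higher and 3 lower for 9 d against 6 d (2.55% and 1.89%), and 10 higher and 11 lower for 9 d against 3 d (10.2% and 10.3%). After rescaling, 3 were called higher and 10 lower for 9 d against 0 d, and 13 higher and 8 lower for 9 d against 3 d. Their median log2 fold change against 0 d was -0.37, -0.30 and -0.27 at 3, 6 and 9 d, beside the medians over all mRNAs given above.

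Other ligands were scarce: of 13, 2 were tested, BMP5 and GDF6, and 11 had a mean under 0.1 FPKM. BMP5 had 0.41, 0.49 and 0.37 FPKM at 0 d and no more than 0.06 in any induced library. BMP5 was called lower at 3 d, 6 d and 9 d and GDF6 at 3 d and 6 d, but none of these calls passed the fold limit with a pseudocount of 1.

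Of 8 tested other antagonists, 2 were called higher and 4 lower at 3 d. The counts were 1 and 1 at 6 d, and 1 and 2 at 9 d. Of these, the higher call, BMPER, was lost at 6 d and 9 d with a pseudocount of 1 (0.57 and 0.34) and at 9 d without replicate 1 of 0 d (0.93), and CRIM1 at 9 d was at -0.996 after rescaling. FST, which encodes follistatin, a binder of activins and some BMPs, had 24.04, 24.71 and 26.56 FPKM at 0 d, 0.35, 0.30 and 0.40 at 3 d, 16.55, 17.15 and 18.60 at 6 d, then 32.11, 35.05 and 30.04 at 9 d. The days of FST had the same order of level as those of GREM1, and its log2 fold change was -5.81 at 3 d (limma adjusted p = 7.72e-11). CHRD, encoding chordin, had 16.65, 17.93 and 20.33 FPKM at 0 d and between 0.58 and 3.62 in the induced libraries, a log2 fold change of -4.56, -2.92 and -2.58 at 3, 6 and 9 d (limma adjusted p = 9.64e-09, 7.07e-07 and 2.09e-06). FSTL3 and CRIM1 were also called lower at 3 d, by log2 fold changes of -2.43 and -2.29 (limma adjusted p = 1.75e-09 and 1.36e-06). In contrast, BMPER, which encodes a chordin-related modulator, had 0.08, 0.23 and 0.17 FPKM at 0 d and 16.46, 15.66 and 16.87 at 3 d, followed by 0.69, 0.69 and 0.78 at 6 d, then 0.51, 0.48 and 0.42 at 9 d. The 3 d libraries alone were high, and the log2 fold change was 6.03 (limma adjusted p = 3.06e-09).

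**Figure D3:**
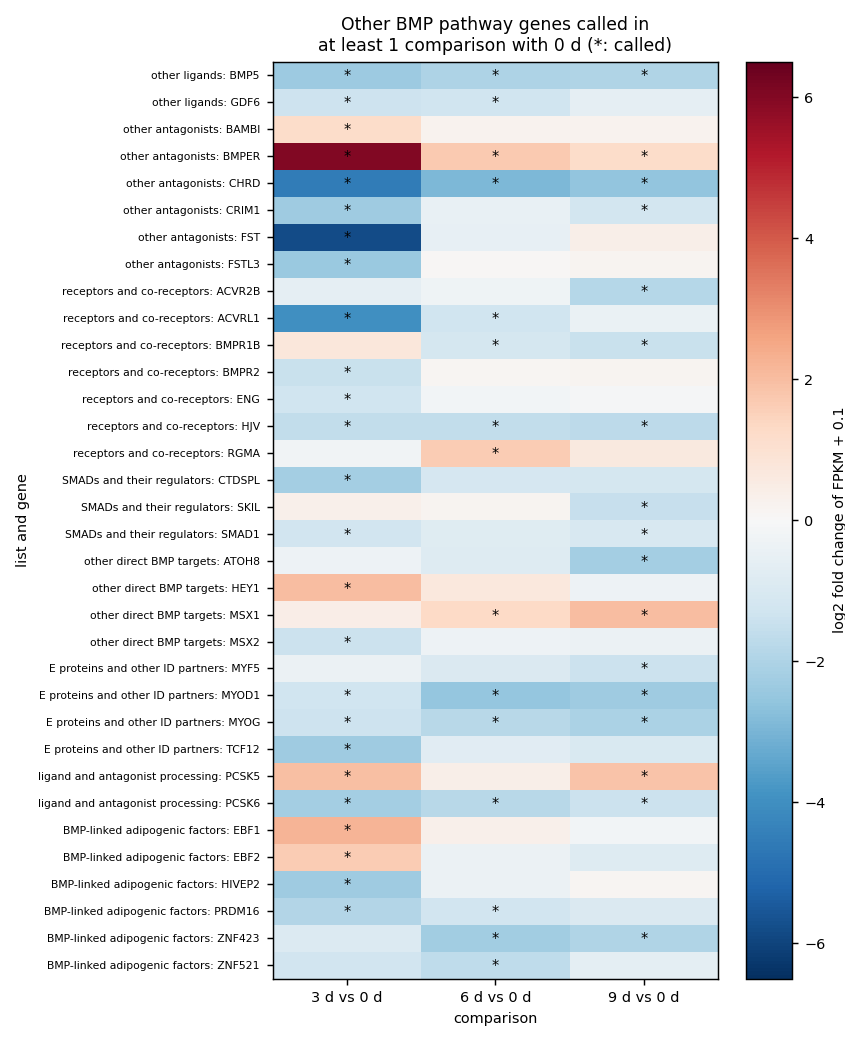
Log2 fold change of FPKM + 0.1 against 0 d at 3, 6 and 9 d (colour) for the 34 other pathway genes called in at least 1 of these comparisons, ordered by list; a star marks a call. BMPER at 3 d, 6.03, and FST at 3 d, -5.81, mark the ends of the range.

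Of the 12 receptors and co-receptors, each of them tested, 4 were called lower at 3 d. At 6 d 1 was called higher and 3 lower, and 3 were called lower at 9 d. ACVR2A, a type II receptor, was the most abundant, with day means of 258, 198, 210 and 272 FPKM, and was not called against 0 d. ACVRL1, a type I receptor, had 16.07, 17.40 and 17.88 FPKM at 0 d, 1.05, 0.78 and 1.2 at 3 d, 6.82, 6.10 and 7.56 at 6 d, then 11.51, 10.67 and 16.42 at 9 d. The 3 d libraries were the lowest and the 0 d and 9 d libraries overlapped, with log2 fold changes of -3.97 at 3 d and -1.32 at 6 d (limma adjusted p = 4.61e-08 and 0.000307). BMPR2 was called lower at 3 d (-1.45, limma adjusted p = 0.00949), but its 3 d libraries had 74.05, 21.21 and 71.23 FPKM, and without replicate 2 of 3 d the value was -0.86. In a fit of the 6 libraries compared its adjusted p was 0.0591 (limma). BMPR1B was called lower at 6 d and 9 d (-1.13 and -1.46, limma adjusted p = 0.0331 and 0.00936); the call at 6 d was lost after rescaling and on leaving out any of 5 libraries, and was -0.80 without replicate 1 of 6 d. ACVR2B was called lower at 9 d (-1.87, limma adjusted p = 0.0396). Leaving out any of 8 libraries ended that call (adjusted p up to 0.139 by limma), while the value ranged from -2.53 to -1.31 with 1 library left out. It was also lost after rescaling (-1.66, limma adjusted p = 0.0675), in a fit of the 6 libraries compared (limma adjusted p = 0.0618) and without the minimum level (limma adjusted p = 0.0538).

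Of 11 SMADs and SMAD regulators tested, 2 were called lower at 3 d (CTDSPL and SMAD1) and 2 at 9 d (SKIL and SMAD1). SKIL at 9 d had a log2 fold change of -1.52. Its call was lost after rescaling (-1.31, limma adjusted p = 0.0535) and in a fit of the 6 libraries compared (-1.52, limma adjusted p = 0.102). Leaving out any of 4 libraries also ended it, and with 1 library left out the value ranged from -2.07 to -1.16, past the fold limit. At 6 d 0 were called by limma, with 6 at an unadjusted p under 0.05. SMAD5, the most abundant of the 4 listed SMADs with a row of their own, had day means of 145, 182, 219 and 194 FPKM at 0, 3, 6 and 9 d, and SMAD4, the shared partner of receptor SMADs, 56.3, 43.9, 48.8 and 44.5 FPKM. SMAD1 was lower at 3 d by -1.24 and at 9 d by -1.05 (limma adjusted p = 0.0145 and 0.0422); its call at 9 d was lost after rescaling and on leaving out any of 9 libraries, both calls were lost with a pseudocount of 1, and that at 3 d without replicate 1 of 0 d (-1.08, limma adjusted p = 0.0539).

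Among 10 tested other direct BMP targets, 2 were called higher and 1 lower at 3 d. At 6 d 1 was called higher, and at 9 d 1 higher and 1 lower. BAMBI, called higher at 3 d (1.17), is counted both here and among the other antagonists. Without replicate 2 of 3 d its value was 0.97, under the fold limit. HEY1, a repressor of the Hairy family, was at 0.97, 0.64 and 0.86 FPKM at 0 d and at 3.67, 3.50 and 3.60 at 3 d, with 1.27, 1.44 and 1.33 at 6 d, then 0.67, 0.63 and 0.56 at 9 d. Its 3 d libraries were the highest, as for ID1, and its log2 fold change was 2.02 (limma adjusted p = 6.96e-07). MSX1, a homeobox target, had day means of 27.1, 37.4, 67.8 and 109 FPKM, highest on the last day. It was called higher at 6 d and 9 d (1.32 and 2.01, limma adjusted p = 4.88e-06 and 3.66e-07), as BMP4 was. ATOH8 had day means of 56.7, 45.8, 31.7 and 12.3 FPKM and was called lower at 9 d (-2.19, limma adjusted p = 3.23e-08). ID4, an ID gene outside the 9, had day means of 2.74, 1.67, 1.75 and 1.63 FPKM and was not called against 0 d. Its mean was highest at 0 d, whereas the means of ID1, ID2 and ID3 were highest at 3 d. Genes read as BMP targets thus did not share 1 time course.

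For the 9 E proteins and other partners of ID proteins, 3 were called lower at 3 d, 2 at 6 d and 3 at 9 d. Apart from TCF12 at 3 d, these calls were of MYOD1, MYOG and MYF5, which are counted again among the skeletal muscle markers below. TCF12, an E protein, had 33.05, 32.27 and 30.73 FPKM at 0 d and 6.65, 6.21 and 5.94 at 3 d, and was lower at 3 d by -2.34 (limma adjusted p = 1.89e-09). MYOD1, a myogenic factor whose activity ID proteins oppose, had 239.76, 260.19 and 303.43 FPKM at 0 d, 107.31, 112.51 and 107.77 at 3 d, 51.86, 33.97 and 57.26 at 6 d, then 56.61, 43.21 and 63.83 at 9 d. The 0 d libraries of MYOD1 were all above the induced ones, with log2 fold changes of -1.29, -2.51 and -2.31 (limma adjusted p = 0.000312, 6.04e-06 and 1.31e-05).

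Of 3 tested genes of ligand and antagonist processing, PCSK5 was called higher at 3 d and 9 d and PCSK6 lower on all 3 days. Among 8 BMP-linked adipogenic factors, 2 were called higher and 2 lower at 3 d. At 6 d 3 were called lower, and 1 at 9 d. Of the calls at 6 d, that of ZNF521 was lost on leaving out any of 4 libraries (limma adjusted p up to 0.0810). With 1 library left out its value ranged from -2.14 to -1.34. EBF1, an early adipogenic factor, had 48.77, 55.75 and 48.39 FPKM at 0 d and 258.37, 226.98 and 232.73 at 3 d, a log2 fold change of 2.23 (limma adjusted p = 1.41e-08). ZNF423, a preadipocyte factor that binds SMADs, had day means of 62.6, 33.9, 13.1 and 16.1 FPKM and was called lower at 6 d and 9 d (-2.24 and -1.98, limma adjusted p = 1.97e-06 and 5.77e-06).

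CircRNAs, closed RNA loops counted by reads across their back-splice, were looked up by host gene. None of the 9 genes was a host, and 120 circRNAs came from other pathway genes, 36 of them with at least 5 reads. With edgeR 0 of these 36 were called at 3 d, at 6 d or at 9 d against 0 d, where 0.813%, 0.53% and 0.566% of 2828 circRNAs were, and 2, 0 and 2 had an unadjusted p under 0.05. DESeq2 called 0 of all circRNAs on each of these days, and so 0 of the 36, with 0 of the 36 at that unadjusted level. The host with most reads was SMAD5, whose circRNA1326 (3 exons; chromosome 7, 47588762 to 47604137 of ARS-UCD1.2, as the file gives them) had 23, 22 and 34 reads at 0 d, 34, 32 and 29 at 3 d, 0, 18 and 22 at 6 d, then 36, 32 and 42 at 9 d. Replicate 1 of 6 d, at 0, stood apart from the other libraries. The other pathway circRNAs with most reads were circRNA998 of SMAD4 (122 reads over the 12 libraries) and circRNA1905 of SMAD6 (98 reads). Back-spliced reads numbered 5358 to 10729 per library.

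Markers of cell identity moved on the same days. Among preadipocyte and fibroblast genes PDGFRA peaked at 3 d, with day means of 160, 930, 162 and 203 FPKM. COL1A1 was instead lowest on that day (day means of 3018, 941, 3080 and 3393 FPKM). PDGFRB was low at 3 d and 6 d (day means of 586, 226, 212 and 597 FPKM). DPP4 and LY6E were under 0.5 FPKM in all 12 libraries. Of 10 genes in that list, 4 were called higher and 2 lower at 3 d. The counts were 3 and 2 at 6 d, and 2 and 1 at 9 d. The list sums to 119506, 116286 and 123627 FPKM at 0 d, 167315, 173220 and 175139 at 3 d, 134895, 130705 and 130428 at 6 d, then 222982, 212250 and 225419 at 9 d, most of it COL3A1. Of 8 tested adipocyte markers, 5, 6 and 6 were called higher at 3, 6 and 9 d and 1 lower at 3 d. Their sum, with FABP4 the most abundant over the 12 libraries, was 10.61, 10.57 and 11.38 FPKM at 0 d, 112.34, 101.30 and 107.76 at 3 d, 41.94, 42.09 and 40.88 at 6 d, then 49.15, 40.78 and 49.13 at 9 d. The high sum at 3 d was mostly FABP4, with a mean of 91.1 FPKM at 3 d and 9.07 at 9 d. FABP4, LPL, CEBPA and ADIPOQ had their highest means at 3 d, and CD36, LEP, PLIN4 and CIDEC had theirs at 9 d. CEBPA was at or under 0.26 FPKM in all libraries, and ADIPOQ, though called higher on all 3 days, at or under 1.64. With a pseudocount of 1 the ADIPOQ and PLIN4 calls on all 3 days and those of CIDEC at 6 d and 9 d were lost. The higher calls of FABP4 and CD36 on each day and of LEP at 6 d and 9 d were kept. How LPL stood with that pseudocount is not given here. The LEP call at 6 d was lost with a pseudocount of 0.01 (log2 fold change 1.73, limma adjusted p = 0.213). The ADIPOQ call at 6 d was lost also in a fit of the 6 libraries compared and on leaving out any of 4 libraries, and its call at 9 d on leaving out any of 3. LEP, the marker called lower at 3 d, had a mean of 2.34 FPKM at 0 d, was listed at 0, 0.21 and 0 at 3 d and at 9.97, 8.60 and 5.50 at 6 d, and had 25.33, 16.62 and 19.57 at 9 d. CD36 had a mean of 0.307 FPKM at 0 d and 7.70, 7.92 and 8.60 at 9 d.

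Of 8 tested skeletal muscle markers, 6, 6 and 7 were called lower at 3, 6 and 9 d. Their sum, with DES the most abundant, was 826.47, 868.07 and 940.77 FPKM at 0 d, 271.15, 299.60 and 295.32 at 3 d, 399.40, 379.03 and 421.42 at 6 d, then 327.59, 293.26 and 324.92 at 9 d. MYOD1 at 268 FPKM and CKM at 133 FPKM at 0 d are markers of myogenic cells in cultures labelled as intramuscular adipocytes. The sum was highest at 0 d, as the levels of BMP6 and NOG were. Of 6 tested pericyte and smooth muscle markers, 1 was called higher and 4 lower at 3 d. The counts were 1 and 2 at 6 d, and 3 were called lower at 9 d. Their sum, with ACTA2 the most abundant over the 12 libraries, was 1927.29, 1954.24 and 2068.36 FPKM at 0 d, 114.19, 120.16 and 110.12 at 3 d, 1658.21, 1782.59 and 1764.99 at 6 d, then 746.06, 683.76 and 767.12 at 9 d, lowest at 3 d as GREM1, FST and ACVRL1 were. ACTA2, CSPG4, NOTCH3 and CNN1 had their lowest means at 3 d, whereas MYH11 and MCAM had their highest there, 57.2 and 17.5 FPKM. The part of these markers in the results above was not tested.

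Of 6 tested glucocorticoid response genes, 5, 5 and 2 were called higher at 3, 6 and 9 d and 1 lower at 9 d. Their sum, with DUSP1 the most abundant, was 376.09, 352.63 and 397.40 FPKM at 0 d, 1173.76, 1091.54 and 1026.23 at 3 d, 927.20, 1045.30 and 1065.10 at 6 d, then 496.06, 509.68 and 481.67 at 9 d, highest at 3 d and 6 d. For 6 d against 3 d, 0 of the 6 were called higher and 3 lower (9.85% and 9.23% of all mRNAs). FKBP5, ZBTB16, PER1 and TSC22D3 had means of 83.2, 282, 6.94 and 34.9 FPKM at 3 d and 19.6, 80.2, 2.32 and 19.8 at 6 d. DUSP1 went the other way, with 600.76, 638.16 and 649.25 FPKM at 3 d and 741.67, 840.95 and 862.31 at 6 d. Of 7 cAMP response genes, limma called 1 higher at 3 d, 0 at 6 d (3 at an unadjusted p under 0.05) and 1 higher at 9 d. Their sum, with PDE4D the most abundant, was 200.50, 821.97 and 803.65 FPKM at 3 d, with replicate 1 low as for ID2, beside 163.35, 151.13 and 143.00 at 0 d. It was 156.18, 93.32 and 99.52 FPKM at 6 d and, above all 0 d libraries, 356.74, 357.68 and 401.29 at 9 d. After rescaling 2 of these genes were called higher at 3 d and 3 at 9 d. Of 7 proliferation genes limma called 0 against 0 d at 3, 6 or 9 d, where 4, 1 and 4 had an unadjusted p under 0.05, with day sums of 54.4, 82.6, 54.3 and 42.4 FPKM. Of 5 tested bone and cartilage markers, 1 was called higher and 1 lower on each day, with day sums of 43.8, 53.7, 66.5 and 55.0 FPKM, and RUNX2 was the most abundant over the 12 libraries. The lower call at 9 d, ACAN, was lost after rescaling (limma adjusted p = 0.0812), without the minimum level, with a pseudocount of 0.01 and on leaving out any of 9 libraries. Of 3 tested endothelial markers limma called 1 lower at 6 d and 0 at 3 d or 9 d (2 and 2 at an unadjusted p under 0.05), and PECAM1, CDH5, KDR and TIE1 had means under 0.1 FPKM. Of 3 tested blood and immune markers, limma called 2 higher at 3 d, 0 at 6 d (1 at an unadjusted p under 0.05) and 1 higher at 9 d, with day sums of 1.22, 3.63, 1.88 and 2.79 FPKM, and PTPRC, AIF1, CD3E and HBB under 0.1 FPKM. The part of the hormone response and of the 3 d library low in PDE4D in the results above was not tested.

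**Figure D4:**
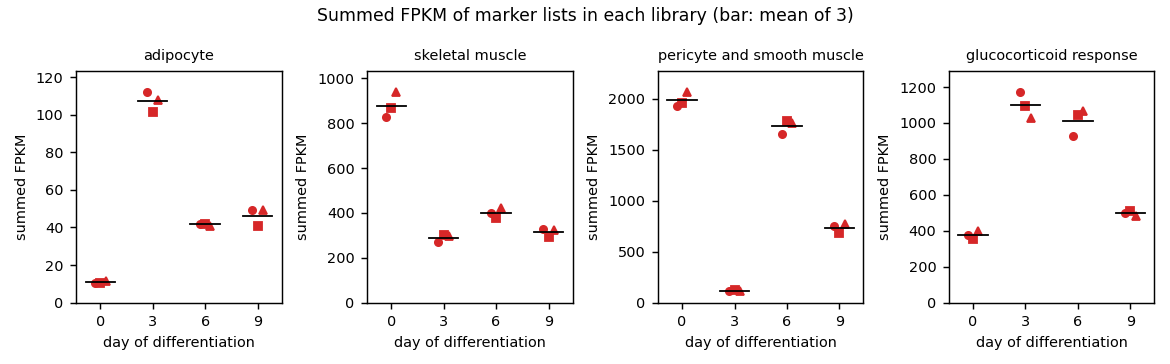
Summed FPKM of 4 marker lists by day of differentiation (0, 3, 6 and 9), 1 point per library with the marker shape giving the replicate number and the bar the mean of 3 libraries; vertical axes start at 0. The adipocyte sum is highest at 3 d (mean 107, of which FABP4 91.1), where the pericyte and smooth muscle sum is lowest (mean 115). The skeletal muscle sum is highest at 0 d (mean 878).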

How the data were processed

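The mRNA values were FPKM made by the authors, rounded to 2 decimals; per the study's methods reads were trimmed with Trimmomatic and mapped to ARS-UCD1.2, and the submitters' processing notes name HISAT2 2.0, Bowtie 0.12.2 and StringTie 1.3.0, beside a mouse build (mm8). CircRNA values were back-spliced read counts as deposited, with a second deposited signal, SRPBM, scaled to mapped reads, that was used only to check depth. The labels describe poly(A) selection and the study's methods rRNA depletion; circRNAs lack a poly(A) tail, and which of these applies was not resolved here. The FPKM table holds no counts.

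Groups were the days given by the sample titles, and replicate numbers were not used as pairs. mRNAs with a mean of at least 0.1 FPKM were fitted on log2(FPKM + 0.1) with limma 3.58.1 in R 4.3.3 (all 12 libraries, mean per day, eBayes with trend), with all 6 pairs of days and Benjamini-Hochberg adjustment over all mRNAs of a comparison. limma took the place of the study's edgeR since FPKM are not counts. CircRNAs with at least 5 counts were tested with edgeR 4.0.16 (quasi-likelihood, TMM). The fits were also tested on simulated data, whose outcome is not reported here. Figures used matplotlib 3.10.9 under Python 3.11.15.

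Named genes were the 9 members, up to 6 genes per list (those with the largest called change against 0 d, with receptors and SMADs of highest level), the 3 mRNAs nearest each member, and circRNAs called or with most reads. Members and lists were chosen with earlier results of these data known. Alternatives were other pseudocounts, filters, a rescaling, fits of the 6 libraries compared, a replicate block, no fold limit and leaving out each library, and for circRNAs DESeq2 1.42.0. Of the listed genes without a row under their exact symbol, 8 stand in rows with joined names, which cannot be assigned to 1 gene; listed genes with no row were not analysed here. Counting joined rows whose other names are LOC or TRNA names was an alternative chosen after seeing the data. lncRNAs, miRNAs and sequences were not used here.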

Additional observations from a re-analysis of the deposited data

How the results depend on the processing

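Calls among the 9 genes changed little in direction: the alternatives turned the sign only of differences that had not been called. With 1 library left out, the log2 fold change ranged from -0.0512 to 0.16 for BMP2 and from -0.0560 to 0.11 for ID1 (6 d against 0 d), from -0.0795 to 0.44 for BMP4 and from -0.43 to 0.0584 for BMP6 (9 d against 6 d), and from -0.0825 to 0.41 for BMP6 (9 d against 3 d).

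With a pseudocount of 1, 1 of the 8 tested genes was called for 9 d against 6 d (2 with 0.1), as when 1 library was left out (1 to 2). With that pseudocount, all mRNAs called numbered 2184, 967 and 888 at 3, 6 and 9 d against 0 d. They numbered 1688 for 6 d against 3 d, 368 for 9 d against 6 d and 1863 for 9 d against 3 d. With a mean of at least 1 FPKM, 1114 mRNAs were called at 9 d against 0 d. Fewer low genes pass in both cases by construction. Without a fold limit, 6, 7 and 4 of the 8 tested genes were called for 3 d against 0 d, 9 d against 0 d and 9 d against 6 d. For 3 d, 6 d and 9 d against 0 d, 42, 32 and 30 other pathway genes and 8039, 5360 and 5675 mRNAs were then called. For 6 d against 3 d, 9 d against 6 d and 9 d against 3 d the counts were 37, 20 and 36 and 7625, 3189 and 7909.

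The replicate block left the counts of the 8 tested genes at 3, 4 and 4 against 0 d. It gave 26, 14 and 15 other pathway genes (25, 15 and 17 without it). It ended the calls of BMPR1B at 6 d and of SKIL and SMAD1 at 9 d (limma adjusted p = 0.0523, 0.0541 and 0.0761). Same-numbered libraries of different days deviated together with r from -0.10 to 0.11, over 0.1 in 2 of 18 pairs, and 6 of 12 libraries correlated best with their own number, so the numbers were not taken as pairs. Counting joined rows, chosen after seeing the data, gave 26, 16 and 18 other pathway genes. Of 131 called values of named list genes, 14 lost their call when some library was left out and 30 with a pseudocount of 1, among them those of HJV and PLIN4 on 3 days each, LY6E and BMPER at 6 d and 9 d, and MSX2, PRDM16, PER1, CLDN5, CD14, CSF1R, BAMBI and FKBP5 on 1 day each. Low levels limit what can be said of NOG, BMP5, GDF6 and the circRNAs.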

Other observations

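Some pathway genes stand in rows with joined names, whose values cannot be assigned to 1 gene. The row of SMAD6 with a tRNA gene had 211.54, 324.37 and 170.80 FPKM at 0 d, 290.51, 160.56 and 161.78 at 3 d, 94.83, 84.60 and 73.78 at 6 d, then 52.52, 37.70 and 53.25 at 9 d, with the 6 d and 9 d libraries below all others. The row of SMURF2, a ubiquitin ligase of SMADs, with an uncharacterised locus had 197.58, 212.26 and 190.59 FPKM at 0 d, 74.10, 68.09 and 65.42 at 3 d, 183.54, 197.67 and 193.73 at 6 d, then 152.27, 153.33 and 151.71 at 9 d, lowest at 3 d like GREM1 and FST. The row that joins PPARG with a neighbouring gene had 23.37, 23.90 and 22.03 FPKM at 0 d and 27.81, 29.51 and 29.31 at 3 d. At 6 d it had 23.64, 23.50 and 25.02 FPKM, and at 9 d 17.37, 16.79 and 14.07, below all other libraries. The row that joins PLIN1 with PEX11A had 20.35, 27.62 and 29.02 FPKM at 0 d and 41.15, 49.99 and 49.99 at 3 d, above all other libraries. Its values were 27.83, 35.41 and 40 at 6 d and 34.85, 27.93 and 37.38 at 9 d. PPARG and PLIN1 belong to the adipocyte list and were not among its 8 tested markers.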
